A study of Mus musculus with 15 samples.

Results

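Glutathione peroxidases and antioxidant defence are represented here by 10 genes, Gpx1, Gpx2, Gpx3, Gpx4, Sod1, Sod2, Txnrd1, Nfe2l2, Gclc and Nqo1. They were chosen by name from the 45808 rows of the deposited table, and each symbol matched 1 row. All 10 passed the filter on low values, as did 11971 genes in all. The RNA came from the ceca, emptied of their contents and flash-frozen, of C57BL/6 mice. In 7 mice the microbiome had been depleted with antibiotics (antibiotic-induced microbiome depletion, AIMD), by gavage every 12 h with ampicillin, vancomycin, metronidazole and neomycin together with the antifungal amphotericin B. The 8 vehicle-treated mice received water by the same route. Ceca were collected after 30 days. The labels give an age of 20 weeks, the study's methods describe males aged 12 weeks at the start, and all mice were wild type. The comparison addresses how gene expression in the cecum differs after this treatment. Loss of gut bacteria and the drugs themselves cannot be told apart in this design. The study also calls their parts in the metabolic consequences unclear.

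Cells remove reactive oxygen in steps. Superoxide dismutases turn superoxide into hydrogen peroxide, and catalase, peroxiredoxins and glutathione peroxidases remove the peroxide. Glutathione peroxidases oxidize glutathione, a tripeptide whose synthesis begins with glutamate-cysteine ligase, and several of them carry selenocysteine in the active site. The transcription factor NRF2, encoded by Nfe2l2, is held at a low level by KEAP1 and, when released, activates genes of this defence through the antioxidant response element. Gpx2 is the glutathione peroxidase of the gastrointestinal epithelium.

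Expression was measured as FPKM, a read count corrected for the length of the gene and the depth of the library. Differences are log2(FPKM + 0.5) in AIMD mice minus that in vehicle-treated mice, after division by a size factor, and were tested with limma with Benjamini-Hochberg adjustment over all 11971 genes and a threshold of 0.05. Whole reads could be recovered from the FPKM, and each of the 10 genes had between 34 and 9711 reads in a mouse. AIMD mice had 8679679 to 18108586 counted reads, with a median of 11244643, and vehicle-treated mice 4372423 to 14405949, with a median of 7855371 (exact permutation test, two-sided, p = 0.0345). Vehicle replicate 8 stood apart, with the fewest reads and the highest level of smooth muscle markers (7 genes), whose summed FPKM was 3037 there, 519 to 1380 in the other vehicle-treated mice and 214 to 817 in AIMD mice. Epithelial markers (10 genes) summed to 25305 to 35602 FPKM in AIMD mice and 22702 to 30942 in vehicle-treated mice, with medians of 32700 and 27594. Most of this sum was Car1, with a mean of 24490 FPKM over all mice. Red cell markers (4 genes) summed to 22.2 to 59.9 in AIMD and 33.4 to 120 in vehicle-treated mice. Because whole cecum was sequenced, fewer cells of a type and less RNA per cell cannot be told apart.

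Of the 10 genes, 6 passed the threshold. Gpx2, Gpx1 and Nqo1 fell in AIMD mice, and Gpx3, Gclc and Txnrd1 rose. Gpx4, Sod1, Sod2 and Nfe2l2 did not pass. Across all genes tested 36% passed, 19.4% higher and 16.6% lower in AIMD mice. The median log2 difference was -0.24 over the 10 genes and 0.0066 over all genes. Groups did not overlap for Gpx2 and for no other gene of the 10, and for 8.56% of all genes tested (5.26% higher and 3.3% lower in AIMD mice).

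**Figure D1:**
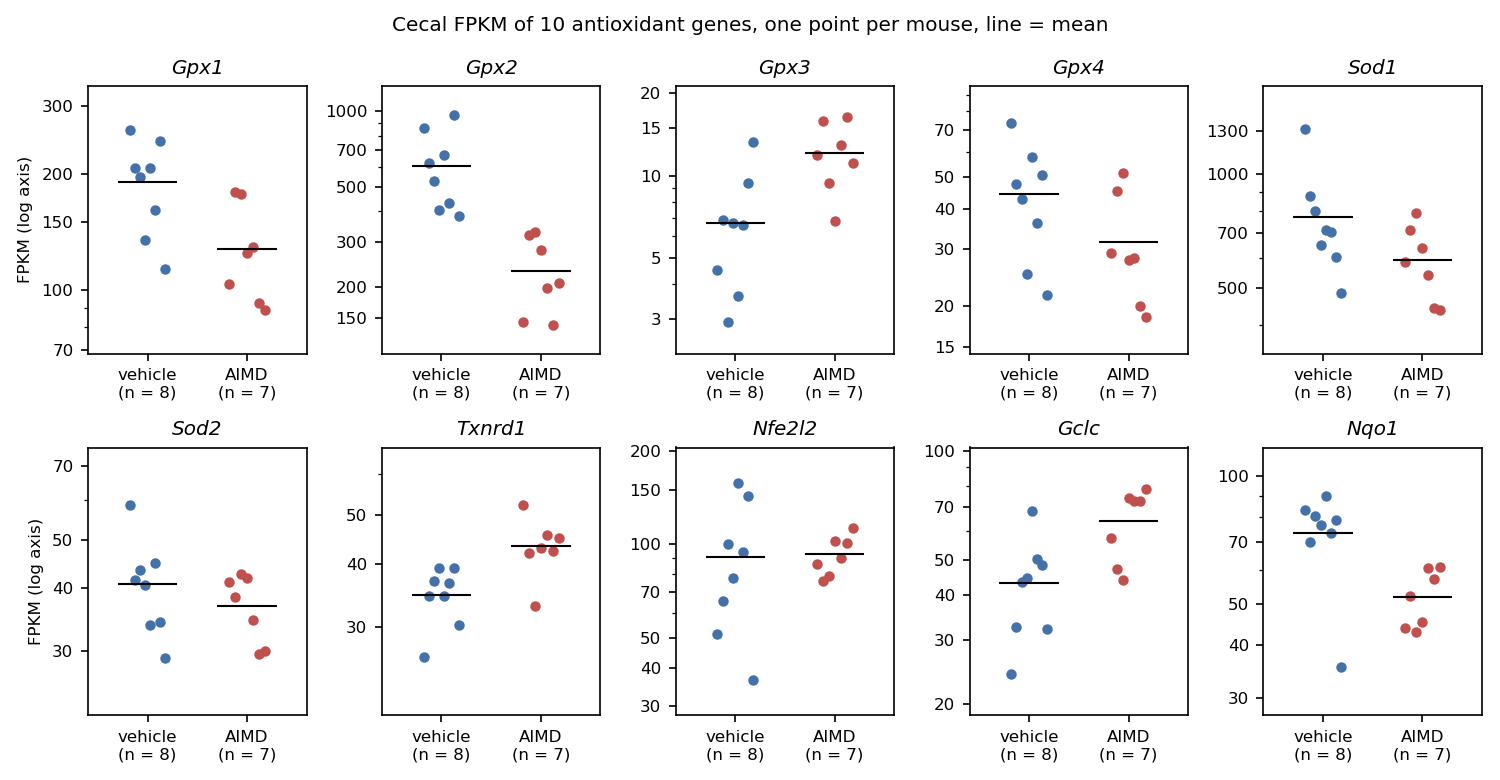
FPKM (log axis) of each of the 10 genes in each mouse, with 8 vehicle-treated mice in blue and 7 AIMD mice in red, and the mean as a line. All AIMD mice lie below all vehicle-treated mice for Gpx2, while for every other gene the groups share part of their range.

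Gpx2, a selenoprotein that reduces peroxides in the gut epithelium, is on chromosome 12, minus strand, between 76792333 and 76795554 (GRCm38). Its FPKM was lowest at 141, had a median of 206 and reached 331 in AIMD mice, against 381, 576 and 970 in vehicle-treated mice. The lowest vehicle-treated mouse was therefore above the highest AIMD mouse. The means were 232 ± 79.4 (SD, n = 7) and 608 ± 216 (SD, n = 8), 2.62 times as high in vehicle-treated mice. The log2 difference was -1.39 (95% interval -1.90 to -0.88, limma adjusted p = 0.000396), farther from 0 than that of 97.4% of genes tested. It passed the threshold in 15 of 15 fits that each left out 1 mouse, and ranged from -1.49 to -1.28.

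Gpx1, the cytosolic peroxidase found in most cells, spans 108338903 to 108340343 on chromosome 9. AIMD mice had a lowest, median and highest FPKM of 89.0, 125 and 179, and vehicle-treated mice 113, 202 and 261. Of the 8 vehicle-treated mice, 5 were above all AIMD mice, and 3 AIMD mice were below all vehicle-treated mice. The log2 difference was -0.57 (95% interval -0.998 to -0.149, limma adjusted p = 0.0346), and it passed in 6 of 15 fits with 1 mouse left out, where the adjusted p reached 0.0787.

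Gpx4, which reduces lipid hydroperoxides in membranes and restrains ferroptosis, had a lowest, median and highest FPKM of 18.6, 28.2 and 51.5 in AIMD mice and 21.7, 45.4 and 73.7 in vehicle-treated mice. These ranges overlap widely. The log2 difference was -0.48 (95% interval -1.04 to 0.07, limma adjusted p = 0.164). Of its 50-base windows 34.7% also occur in transcripts of other genes, so its count is uncertain.

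Gpx3, the secreted peroxidase of plasma and the extracellular space, moved the other way. It spans 54902453 to 54910377 on chromosome 11. The FPKM was 6.82 at the lowest, 11.9 at the median and 16.4 at the highest in AIMD mice, and 2.90, 6.64 and 13.2 in vehicle-treated mice. The highest vehicle-treated mouse was replicate 8, and 5 vehicle-treated mice were below all AIMD mice. The log2 difference was 0.88 (95% interval 0.33 to 1.43, limma adjusted p = 0.0150), and it passed in 15 of 15 fits with 1 mouse left out. With a score of smooth muscle against epithelial markers as a covariate, an alternative added after the data were seen, it was 1.46 (limma adjusted p = 6.92e-05).

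Summed over Gpx1 to Gpx4, the peroxidases had 270 to 570 FPKM in AIMD mice, with a median of 369, and 530 to 1275 in vehicle-treated mice, with a median of 828. Gpx2 made up 49.8% to 63.7% of this sum in AIMD mice and 67.8% to 76.1% in vehicle-treated mice, so these shares did not overlap. The FPKM of Gpx2 was 1.39 to 2.32 times that of Gpx1 in AIMD mice and 2.67 to 3.98 times in vehicle-treated mice, again without overlap. Gpx3 stayed a small part, at most 6.06% of the sum in any AIMD mouse and 2.50% in any vehicle-treated mouse. Gpx2 was the largest of the 4 in every mouse.

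**Figure D2:**
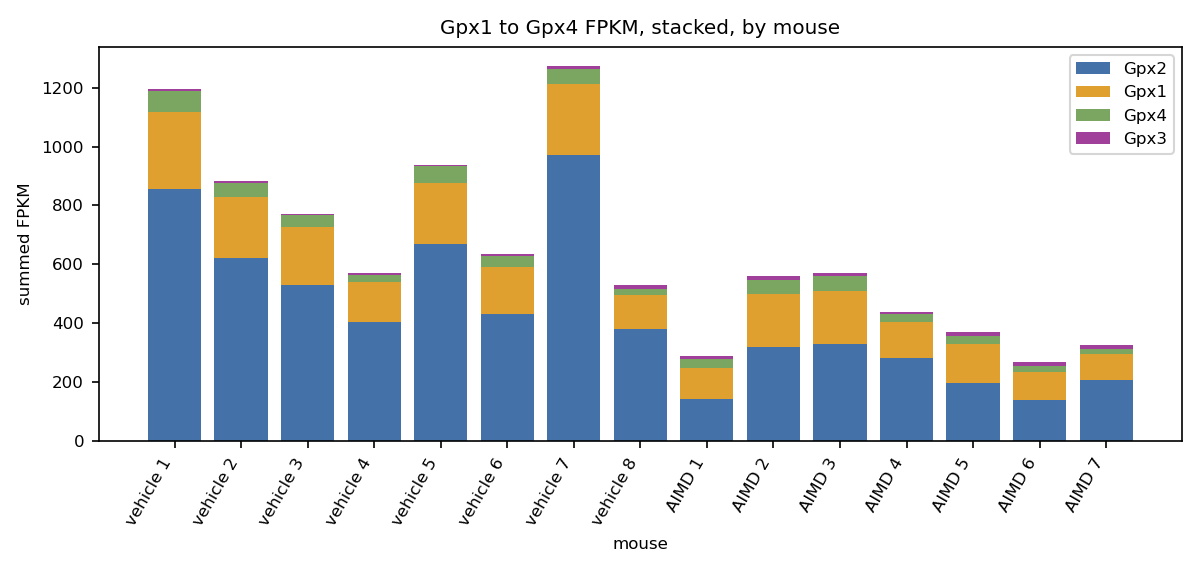
FPKM of Gpx2, Gpx1, Gpx4 and Gpx3, stacked for each of 8 vehicle-treated and 7 AIMD mice. The blue Gpx2 part is 381 to 970 in vehicle-treated mice and 141 to 331 in AIMD mice.

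Sod1, the cytosolic copper-zinc superoxide dismutase, was the most abundant of the 10 genes per length. Its FPKM was 438, 588 and 792 at the lowest, median and highest AIMD mouse and 487, 709 and 1318 in vehicle-treated mice. Sod2, the mitochondrial manganese enzyme, had 29.7, 38.4 and 42.7 against 29.1, 41.1 and 58.7. Neither passed the threshold, with log2 differences of -0.35 (95% interval -0.76 to 0.06, limma adjusted p = 0.169) and -0.13 (-0.43 to 0.17, limma adjusted p = 0.514). Of the 10012 50-base windows over all annotated Sod2 transcripts, 21.04% are shared with other genes. The length behind its FPKM is 3824 bases, so this share may not describe the sequence counted.

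Nfe2l2 (NRF2) did not pass either. Its FPKM was 76.2, 90.5 and 113 in AIMD mice and 36.6, 86.0 and 158 in vehicle-treated mice, so that all AIMD mice lay within the vehicle range. The log2 difference of 0.16 (95% interval -0.37 to 0.69, limma adjusted p = 0.647) became -0.0030 without vehicle replicate 8, the lowest mouse. The coefficient of variation was 46.7% among vehicle-treated mice and 14.5% among AIMD mice, a difference that was not tested.

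The NRF2 targets among the 10 genes moved in different directions. Gclc, the catalytic subunit of glutamate-cysteine ligase, had a lowest, median and highest FPKM of 43.9, 72.8 and 78.5 in AIMD mice and 24.2, 43.9 and 68.3 in vehicle-treated mice. In 4 AIMD mice it was above all vehicle-treated mice, and the log2 difference was 0.60 (95% interval 0.18 to 1.01, limma adjusted p = 0.0266), which passed in 12 of 15 fits with 1 mouse left out. Txnrd1, the selenoprotein that reduces thioredoxin in the cytosol, had 33.1, 42.9 and 52.1 against 26.2, 35.6 and 39.3, and 6 AIMD mice exceeded the whole vehicle range. Its log2 difference was 0.31 (95% interval 0.07 to 0.56, limma adjusted p = 0.0429), and only 3 of 15 fits with 1 mouse left out passed, although the exact rank-sum test over all genes also called it (adjusted p = 0.0324).

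Nqo1, a quinone reductase used as a readout of NRF2 activity, fell. AIMD mice had 43.0, 52.3 and 61.0 FPKM at the lowest, median and highest mouse, and vehicle-treated mice 35.6, 77.9 and 89.8. In 7 of 8 vehicle-treated mice Nqo1 was above all AIMD mice, and replicate 8 was below them all. The log2 difference was -0.47 (95% interval -0.82 to -0.11, limma adjusted p = 0.0404), and -0.61 without vehicle replicate 8 (limma adjusted p = 0.000555). It passed in 4 of 15 fits with 1 mouse left out.

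**Figure D3:**
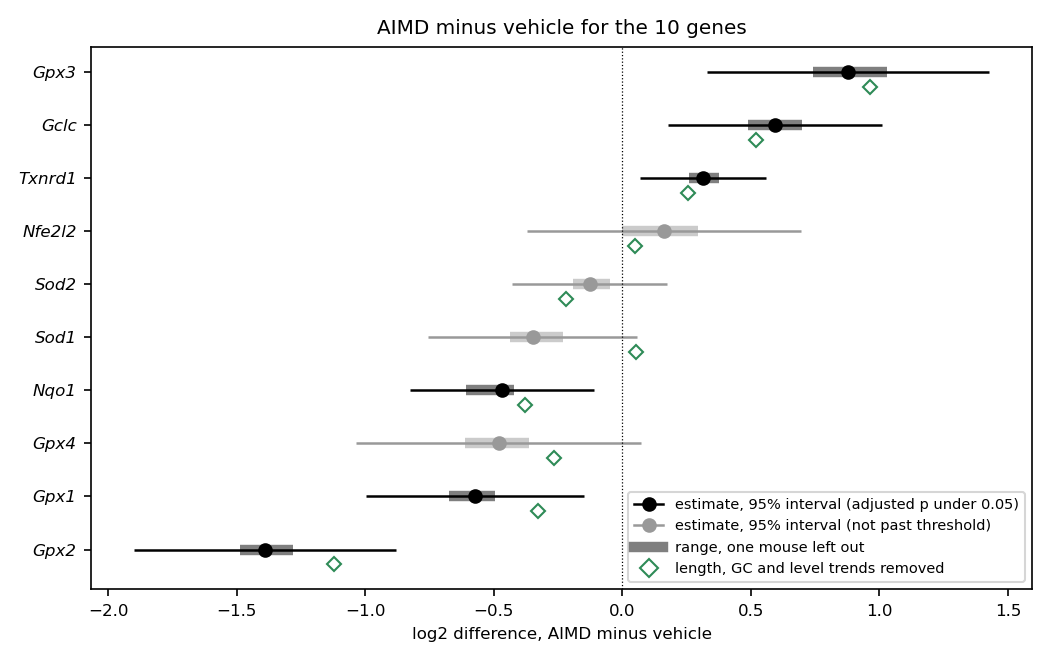
Log2 difference, AIMD minus vehicle, of each gene as a point with its 95% interval (thin line) and the range when 1 mouse was left out (thick bar), black where the adjusted p was under 0.05 and grey otherwise. Open diamonds give the difference after the length, GC and level trends of each mouse were removed, which put Sod1 at 0.05 and Gpx2 at -1.12.

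The order of the mean levels per length was the same in both groups for the 4 highest genes and the lowest, while Gpx4 was at rank 6 in vehicle-treated and rank 9 in AIMD mice and Gclc at ranks 7 and 5. Sod1 was highest in AIMD mice, at 594 ± 132 FPKM (SD, n = 7), and its range did not overlap with that of Gpx2, the next. In vehicle-treated mice Sod1, at 770 ± 251 (SD, n = 8), overlapped with Gpx2 but was above it in 7 of 8 mice. Gpx3 was the lowest in both groups, without overlap with the gene above it. Gpx1 came after Gpx2 and Nfe2l2 after Gpx1 in both, and neighbours among Nqo1, Gclc, Txnrd1, Sod2 and Gpx4 overlapped in both groups.

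Short transcripts varied together between mice, and the 10 genes are 646 to 3824 bases long, against a median of 3530 over all genes tested. In each mouse, the median deviation of genes with a length of up to 1000 bases minus that of longer genes was taken on the log2 scale. It ran from -0.26 to 0.17 in AIMD mice, with a median of -0.16, and from -0.33 to 0.41 in vehicle-treated mice, with a median of 0.15 (exact permutation test, two-sided, p = 0.104). The median log2 difference was -0.15 for the 945 genes tested of up to 1000 bases and 0.06 for the 5168 genes above 4000 bases. Centred within the groups, over 15 mice, this deviation had a Pearson correlation with the log2 level of 0.91 for Gpx1 (1441 bases), 0.90 for Gpx4 (1724 bases), 0.86 for Sod1 (646 bases) and 0.83 for Gpx2 (1067 bases). For Gclc (3423 bases) it was -0.36 and for Txnrd1 (3417 bases) -0.39. These correlations describe the mice and share each mouse's library.

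As an alternative added after the data were seen, the trends of each mouse with gene length, GC content and mean level were removed from all 11971 genes, of which 41.7% then passed. Of the 10 genes, 4 passed. Gpx2 was at -1.12 (limma adjusted p = 9.31e-05), Nqo1 at -0.38 (limma adjusted p = 0.0480), Gpx3 at 0.96 (limma adjusted p = 0.0104) and Gclc at 0.52 (limma adjusted p = 0.0357). Gpx1, at -0.33, and Txnrd1, at 0.26, no longer passed (limma adjusted p = 0.0659 and 0.0797), and Sod1 changed sign, to 0.05 (limma adjusted p = 0.736). The log2 difference of Gpx2 minus that of Gpx1 was -0.82 before and -0.79 after. Removal of such a trend also removes any effect of AIMD that follows length, so the values before and after it are both given.

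**Figure D4:**
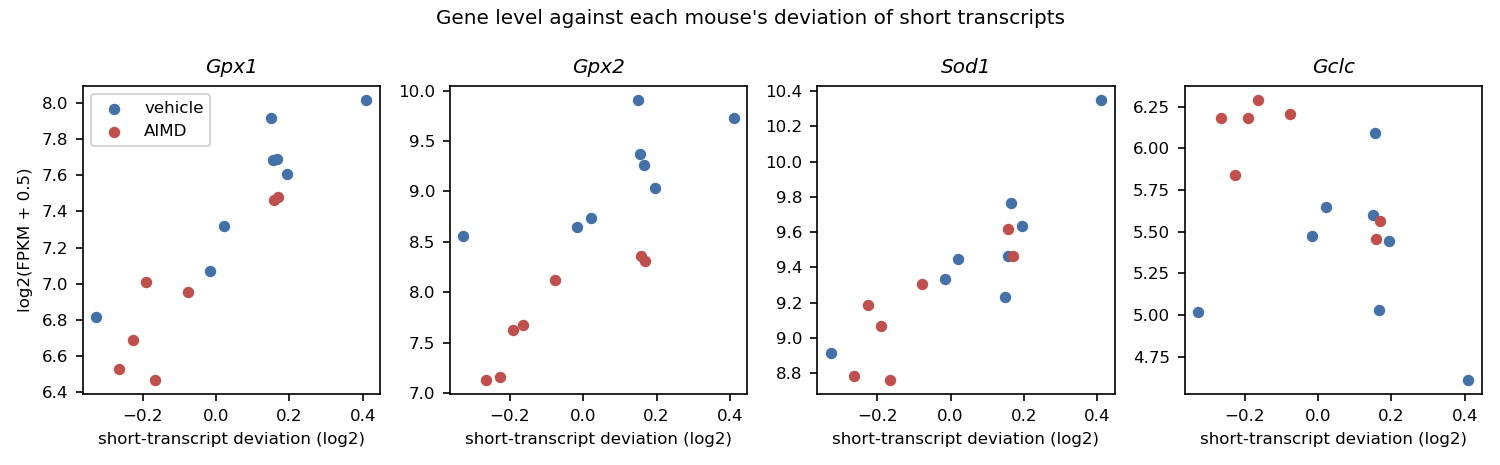
Log2(FPKM + 0.5) of Gpx1, Gpx2, Sod1 and Gclc against each mouse's deviation of short transcripts, with 8 vehicle-treated mice in blue and 7 AIMD mice in red. Gpx1, Gpx2 and Sod1 are higher in mice with a higher deviation, and at like deviations the vehicle-treated mice lie above the AIMD mice by more for Gpx2 (-1.12 after removal of the trends) than for Gpx1 (-0.33).

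A score of muscle against epithelial markers differed between the groups. The mean log2 level of smooth muscle markers minus that of epithelial markers averaged -3.60 ± 0.74 over AIMD mice (SD, n = 7) and -2.67 ± 0.77 over the vehicle group (SD, n = 8) (exact permutation test, two-sided, p = 0.0186). Of the smooth muscle markers 0 of 7 rose and 1 fell, though all 7 log2 differences were negative, with a median of -0.75. Of the epithelial markers 2 of 10 rose and 1 fell, with a median of 0.20. The shares that passed were 14.3% and 30%, against 36% of all genes. With this score as a covariate, Gpx1, Gpx2, Gpx3 and Nqo1 passed, while Gclc, at 0.41, and Txnrd1, at 0.26, did not (limma adjusted p = 0.184 and 0.163). Over all genes 3710 of 11971 passed with it. Of 3 tested markers of adipocytes, a cell type that also makes Gpx3, 1 fell and none rose, 33.3% against 36% of all genes. All 3 log2 differences were negative, with a median of -1.44, but levels were low. Adipoq, the marker that fell, had a mean of 0.48 FPKM in AIMD and 2.21 in vehicle-treated mice. The part of adipocytes in the level of Gpx3 was not tested. Of the red cell markers 2 of 4 fell, and their part in the lower Gpx1, an abundant red cell enzyme, was not tested.

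The study's own model included when each mouse was sacrificed, which the labels do not give. A score over 13 clock genes, centred within the groups, stood in for it. As a covariate, a score centred in this way leaves each log2 difference between the groups unchanged and alters only its standard error. It cannot show how far unequal times of sacrifice entered these differences. It split the mice into 7 with a high score (3 AIMD, 4 vehicle-treated) and 8 with a low score (4 and 4). Of the 10 genes, 3 followed this score, against 22.8% of all genes. Sod1 and Sod2 were higher at high scores, by 0.08 and 0.06 log2 units per unit of score (limma adjusted p = 0.0285 and 0.0393), and Gclc was lower, at -0.08 per unit (limma adjusted p = 0.0388). Gpx2 was lower in AIMD mice in both clusters, at -1.22 at high and -1.51 at low scores, and Gclc was higher in both, at 0.48 and 0.63. Gpx4 was at -0.11 and -0.74, and Nqo1 at -0.74 and -0.23. Whether these differ between clusters was not tested.

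Within the groups, the closest pairs of the 10 genes over 15 mice were Gpx1 with Gpx4 (Pearson r of centred log2 values, 0.96), Sod1 with Sod2 (0.90), Gpx1 with Gpx2 (0.89), Gpx4 with Sod1 (0.83) and Nfe2l2 with Gclc (0.82). After removal of the length, GC and level trends these were 0.85, 0.71, 0.76, -0.27 and 0.75. Among all genes, before removal of the trends, those most like Gpx2 included Nme1 (r = 0.93) and Rps21. Those most like Gpx1 were Mrpl12 (r = 0.97), Ndufa7 and Gpx4. Sod1 was closest to Ndufb11 (r = 0.98), and Gpx3 to Serping1 (r = 0.92), Cap2 and Tpm1. Nfe2l2 was closest to Akr1c14 (r = 0.97), and Nqo1 to Glud1 (r = 0.94). The closest genes were not sought after removal of the trends, and the part of transcript length in these correlations was not tested.

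The antioxidant response element is the sequence that NRF2 binds with small MAF proteins, and its core TGACNNNGC was sought on both strands from 250 bases before to 50 bases after each RefSeq transcription start (GRCm38.p6). A window was at hand for 9 of the 10 genes, and Gclc was not in the table. The core occurred in a window of 3 genes, Sod1, Txnrd1 and Nfe2l2, against 13.99% of 27025 genes. It did not occur in these windows of Gpx1 to Gpx4, Sod2 or Nqo1, which says nothing of sites elsewhere. The 250 bases before the start are shown for these 3 genes and for Gpx2, the gene with the largest difference, on the gene's strand with the core in capitals, at chr12:76795555-76795804 (Gpx2, minus strand), chr10:82858956-82859205 (Txnrd1, plus strand, the second of 3 starts), chr16:90220512-90220761 (Sod1, plus strand) and chr2:75704664-75704913 (Nfe2l2, minus strand).
Gpx2: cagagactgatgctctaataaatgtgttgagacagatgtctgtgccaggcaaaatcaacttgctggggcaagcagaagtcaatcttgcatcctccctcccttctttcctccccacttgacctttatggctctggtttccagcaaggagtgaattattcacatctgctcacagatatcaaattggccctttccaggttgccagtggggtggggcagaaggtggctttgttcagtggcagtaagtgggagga
Txnrd1: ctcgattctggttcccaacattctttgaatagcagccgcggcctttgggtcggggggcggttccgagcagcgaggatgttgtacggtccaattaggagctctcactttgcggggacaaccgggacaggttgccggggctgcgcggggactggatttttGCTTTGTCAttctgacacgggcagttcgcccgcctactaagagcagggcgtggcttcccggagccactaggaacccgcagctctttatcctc
Sod1: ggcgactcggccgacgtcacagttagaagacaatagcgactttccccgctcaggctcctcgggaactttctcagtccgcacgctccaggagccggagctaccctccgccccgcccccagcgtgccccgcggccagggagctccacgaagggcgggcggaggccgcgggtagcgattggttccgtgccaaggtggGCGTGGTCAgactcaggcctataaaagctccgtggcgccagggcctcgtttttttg
Nfe2l2: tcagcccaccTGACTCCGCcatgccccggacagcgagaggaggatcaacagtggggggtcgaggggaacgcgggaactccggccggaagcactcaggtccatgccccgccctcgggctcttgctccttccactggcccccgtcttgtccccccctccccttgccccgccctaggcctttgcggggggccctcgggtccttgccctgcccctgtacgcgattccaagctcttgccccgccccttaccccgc
The core begins 92 bases before the start of Txnrd1 and 56 before that of Sod1, both on the opposite strand, and 240 before that of Nfe2l2. Of these 3 genes only Txnrd1 passed the threshold, and Gpx2 and Nqo1, which fell, have no match in these windows.

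Wider lists were counted around these genes, and their shares are to be read against the 36% of all genes that passed. Of 6 tested glutathione peroxidases, 1 rose (Gpx3) and 3 fell, among them Gpx7, a peroxidase of the endoplasmic reticulum, at a low level of 0.88 ± 0.32 FPKM (SD, n = 7) against 1.37 ± 0.37 (SD, n = 8) and a log2 difference of -0.44 (limma adjusted p = 0.0386). Gpx5 and Gpx6 were not tested because their values were too low. Of 5 superoxide dismutases and related enzymes, 1 fell, catalase (Cat), at -0.39 (limma adjusted p = 0.0267). The shares that passed were 66.7% and 20.0%, and the medians -0.48 and -0.35.

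Peroxiredoxins reduce peroxides at a cysteine, most of them with electrons from thioredoxin, and glutaredoxins, counted with them here, draw on glutathione. Of 17 genes, 3 rose and 3 fell, 35.3% against 36% of all genes, with a median of -0.31. Prdx6, a peroxiredoxin that also reduces phospholipid peroxides, had 517 ± 117 FPKM (SD, n = 7) against 1150 ± 253 (SD, n = 8), a log2 difference of -1.15 without overlap (limma adjusted p = 0.000114). Glrx5, a mitochondrial glutaredoxin of iron-sulfur cluster assembly, was at -1.41, also without overlap (limma adjusted p = 0.000154). Prdx2 fell by 0.71 on the log2 scale (limma adjusted p = 0.0155). Srxn1, which repairs overoxidized peroxiredoxins, rose without overlap, from 81.6 ± 6.02 (SD, n = 8) to 121 ± 17.9 FPKM (SD, n = 7), a log2 difference of 0.56 (limma adjusted p = 0.000859). Txn1, the most abundant gene of the list, did not pass at -0.44 (limma adjusted p = 0.111).

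Of 12 genes of glutathione synthesis and recycling 1 rose (Gclc) and 1 fell (16.7%), with a median of -0.01. Of the 11 outside the 10 genes, none rose and 1 fell. The gene that fell was Ggt1, which breaks down extracellular glutathione, from 4.52 ± 2.03 FPKM (SD, n = 8) to 0.80 ± 0.39 (SD, n = 7), a log2 difference of -1.90 without overlap (limma adjusted p = 1.12e-05). Gsr, which regenerates glutathione, was at -0.15 (limma adjusted p = 0.470). Of 7 genes of NADPH supply only Me1 passed (14.3%), at -1.34 (limma adjusted p = 0.000175), although 22.9% of its windows are shared with other genes.

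Of 10 genes of NRF2 and its regulators, 4 rose and 2 fell (60%), with a median of 0.13. All that passed were among the 9 outside the 10 genes studied here. Bach1, which represses antioxidant response elements, rose without overlap by a log2 difference of 1.12 (limma adjusted p = 0.000656), and the small MAF genes Maff (0.58, limma adjusted p = 0.00948) and Mafk rose as well, as did Cul3 (0.53, limma adjusted p = 0.00590), part of the ligase that KEAP1 guides. Rbx1 of the same ligase was at -0.78 (limma adjusted p = 0.00274), and Keap1 also fell. Of 24 NRF2 target genes 4 rose and 6 fell (41.7%), with a median of -0.20. Of the 20 outside the 10 genes, 2 rose and 4 fell. Besides Gpx2 and Nqo1, the genes that fell were Me1, Gstm1, Blvrb, at -1.23 (limma adjusted p = 0.000500), and Cbr3, at -1.14 (limma adjusted p = 0.000295). Besides Gclc, Txnrd1 and Srxn1, Ftl1 rose, with 50.9% of its windows shared with other genes. After removal of the length, GC and level trends 4 of these 24 targets rose and 10 fell, where 2555 of 11971 genes rose and 2436 fell.

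Other selenoproteins (15 tested) moved both ways, with 4 higher and 4 lower (53.3%) and a median of 0.05. Dio1, a deiodinase that activates thyroid hormone, went from 154 ± 32.0 FPKM (SD, n = 8) to 27.5 ± 7.36 (SD, n = 7), a log2 difference of -2.48 without overlap (limma adjusted p = 6.26e-08). Sephs2, a selenoprotein that makes the selenium donor for selenocysteine, went from 5.93 ± 2.50 (SD, n = 8) to 22.5 ± 7.81 FPKM (SD, n = 7), a log2 difference of 1.85 without overlap (limma adjusted p = 3.70e-05). Selm and Sepw1 were at -1.46 and -0.79 (limma adjusted p = 7.37e-05 and 0.00236), and Sepp1, the selenium carrier of plasma, at 0.05 (limma adjusted p = 0.911). Of 7 genes of the selenium machinery none rose and 2 fell (28.6%), Trnau1ap, at -0.86 (limma adjusted p = 0.00270), and Scly. Of 8 tested epithelial enzymes that produce oxidants 37.5% passed, near the share of all genes. Of these 2 rose, Xdh (0.90, limma adjusted p = 0.000510) and Noxo1, and 1 fell, Cyba, an NADPH oxidase subunit, at -1.40 (limma adjusted p = 0.000390).

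**Figure D5:**
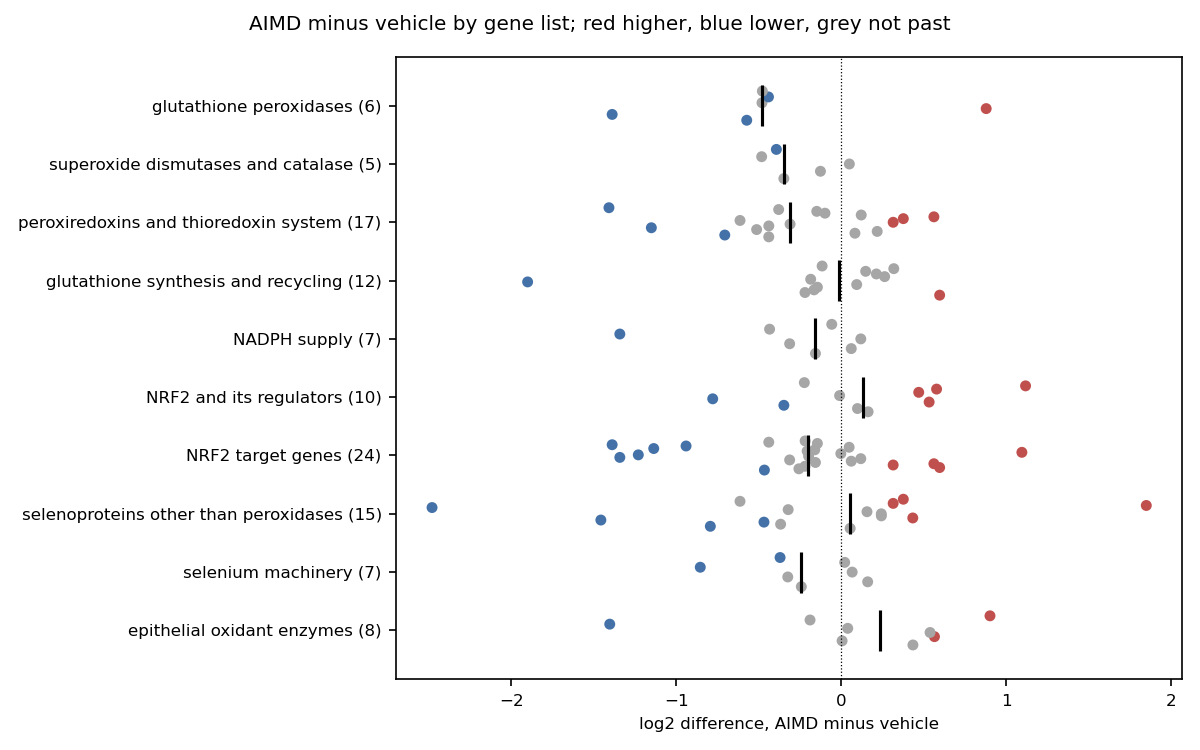
Log2 difference, AIMD minus vehicle, of each tested gene in 10 lists (number tested in brackets), red where it rose, blue where it fell and grey where it did not pass, with the median of the list as a bar. Lists other than NADPH supply, the selenium machinery and the superoxide dismutases hold both risen and fallen genes.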

How the data were processed

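Cecal RNA of 7 AIMD and 8 vehicle-treated mice was sequenced by the authors (poly-A selected, stranded, 50-base single reads), mapped with STAR to GRCm38, counted with featureCounts on GENCODE annotation, and deposited as FPKM by gene symbol, 1 column a mouse. How counts became FPKM is not given in the sources used here. Of 45808 rows, 4 with a repeated symbol were left out. For each of the 24279 genes above 0, the values came out as whole numbers of reads (tolerance 0.02 reads), which gave the depth. For 68.1% of them the length used was that of GENCODE M21. For the others the shortest length that gave whole numbers was taken, so whole numbers are no check of those lengths. The same lengths entered the length trends. Precision of low genes is limited by their reads. Mice were housed several to a cage, and which of them shared a cage is not used here. The tests treat each mouse as independent, so p-values may be too small if mice of a cage are alike.

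Values were scaled by size factors from medians of ratios (1.01 in every mouse). Genes with at least 0.5 FPKM in at least 7 mice were tested as log2(FPKM + 0.5), which understates the change of low genes, with lmFit and eBayes with a trend (limma 3.58.1, R 4.3.3), two-sided, with Benjamini-Hochberg adjustment. Exact permutation tests ran over 6435 splits of the mice (smallest p 0.000155). The rest was done with scipy 1.17.1, pandas 2.3.3, matplotlib 3.10.9 and numpy 2.4.6 in Python 3.11.15. GC content came from GENCODE M21 transcripts (96.1% of genes tested). On simulated reads limma called 96.0% of 50 genes changed by 2 times among 12152 genes run. This share holds only for the spread of the simulated reads. Among vehicle-treated mice, the coefficient of variation of the genes studied here ran from 13.0% for Txnrd1 to 49.9% for Gpx3. The share is therefore not the power for genes that did not pass the threshold.

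The 10 genes and all lists were chosen with earlier results of these data known. The genes that may be named are the 10 genes, in each list any gene past the threshold, with values for up to 4 with the largest change and 3 with the highest mean, and, for each of the 10, genes from the 3 most like it, of which some are not reported here. Several list genes carry older symbols in the table (Sepp1, Sepw1, Selm, Selk and Vimp are now Selenop, Selenow, Selenom, Selenok and Selenos). Alternatives were pseudocounts of 0.1 and 1, other filters and scalings, limma voom on the recovered reads, an exact rank-sum test, a clock-gene covariate, a replicate block, each mouse left out, and, added after the data were seen, a muscle-against-epithelium covariate, the clock covariate without vehicle replicate 8, and removal of length, GC and level trends.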

Additional observations from a re-analysis of the deposited data

Results flagged for a closer look

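Each gene's highest and lowest mouse was compared with the rest of its group, 20 groups in all, of which chance flags about 1 in 20, and 2 stood apart beyond Dixon's 95% critical value of 0.526 for 8 mice. Sod1 in vehicle replicate 1 was at 1318 FPKM, where the gap to the next mouse was 0.530 of the group's range. This mouse also had the highest deviation of short transcripts, 0.41 on the log2 scale. Nqo1 in vehicle replicate 8 was at 35.6 FPKM, with a gap of 0.634 of the range. This mouse also had the fewest reads, 4372423, and the highest smooth muscle markers. The part of these measures in either value was not tested.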

How the results depend on the processing

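Gpx2 passed the threshold with the same sign under all 28 alternatives, and Gpx3 under all but the exact rank-sum test (adjusted p = 0.0574). With the clock covariate over all mice the log2 differences are those of the main fit by construction, so no sign could change there. The rank-sum test called 3 of the 10 genes, Gpx2, Nqo1 and Txnrd1, so that 1 rose. Over all genes it called 3887 of 11971. Without the filter on low values 1 of the 10 fell, and with the muscle-against-epithelium covariate 1 rose. With 1 mouse left out, 1 to 3 of the 10 rose and 1 to 3 fell. Nfe2l2 changed sign without vehicle replicate 8 (-0.0030). The replicate block also left out that mouse, so its log2 differences equal those without that mouse by construction, and -0.0030 there is no second result. Nfe2l2 changed sign too with the muscle-against-epithelium covariate (-0.21) and with the clock covariate without vehicle replicate 8 (-0.067). Sod1 changed sign to 0.052 after removal of the length, GC and level trends. With 1 mouse left out, Nfe2l2 ran from -0.0030 to 0.296. The cause of these changes was not tested.

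The labels do not say whether the replicate numbers shared by the groups pair the mice. Correlations of deviations of same-numbered mice ran from -0.35 to 0.43, and only replicate 7 correlated best with its own number. The numbers did follow the clock-gene score. AIMD replicates 1 to 3 and vehicle replicates 1 to 4 had high scores, and all others low scores. The replicate block also left out vehicle replicate 8. It called 4646 genes, against 4315 in the main fit and 4638 without that mouse alone. Gpx4 passed the threshold at -0.61 and Txnrd1, at 0.29, did not. The block called 2 of the superoxide dismutases and catalase, 2 of NADPH supply and 5 of the other selenoproteins. Over all genes, 4315 of 11971 passed in the main fit and 4216 of 24279 without the filter. Of the 11971, 4432 passed with quantile normalization, 4449 with voom, 5117 with the clock covariate and 5576 with it without vehicle replicate 8. The muscle-against-epithelium covariate gave 3710, removal of the trends 4991, and 1 mouse left out 3551 to 4638. List counts are to be read against these. The other list counts that moved by over 1.5 times were as follows. Glutathione peroxidases, 4 at first, had 2 without the filter and after removal of the trends, and 1 by rank-sum. Superoxide dismutases and catalase, 1 at first, had 2 with quantile normalization, with the clock covariate and with voom, and 3 with the clock covariate without vehicle replicate 8. NADPH supply, 1 at first, had 2 with the muscle-against-epithelium covariate and with the clock covariate without vehicle replicate 8, and 3 after removal of the trends. Other selenoproteins, 8 at first, had 5 with the muscle-against-epithelium covariate. Peroxiredoxins and the thioredoxin system, 6 at first, had 11 with the clock covariate without vehicle replicate 8. Glutathione synthesis and recycling, 2 at first, had 1 by rank-sum and 4 after removal of the trends. With 1 mouse left out, counts ran from 2 to 4 for glutathione peroxidases, 0 to 2 for superoxide dismutases and catalase, 1 to 3 for glutathione synthesis, 1 to 2 for NADPH supply and 4 to 8 for other selenoproteins.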
